A study of Mus musculus with 12 samples.

Results

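The regions described here are sites of open chromatin that the deposited data hold for Kupffer cells of control-diet mice (KC-H) and for none of the other 5 myeloid cell populations of the study. They were chosen by merging peaks that overlapped by 1 bp or more over all 6 peak lists and keeping the merged regions with a KC-H peak and no other peak. The rule kept 9871 of 100354 merged regions, and 9871 of the 63341 regions of KC-H, which is 15.6%. These are called KC-H-only regions below, and each is a single peak, 200 bp wide in all but 1 case.

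Open chromatin was read with ATAC-seq, which uses a transposase that can cut and tag DNA only where it is accessible, in 12 libraries of sorted cells from C57BL/6J mice, 2 for each of 6 groups. KC-H cells were F4/80-high and Tim4-positive liver macrophages from mice fed a control diet. The other 5 groups came from mice fed a NASH diet, which models nonalcoholic steatohepatitis, a fatty liver with inflammation. They were Kupffer cells of the same surface phenotype (KC-N) and F4/80-high cells without Tim4, which the labels also call Kupffer cells (KN-RM). Macrophages recruited to the liver, with high Cd11b, were split by Ly6C into Ly6CHi-RM and Ly6CLo-RM. The last group, Blood-Ly6CHi-NASH, was Ly6C-high monocytes of the blood. No control-diet recruited cells or monocytes are among these groups, so KC-H differs from 4 of the other lists in cell type and diet at once, and from KC-N in diet. Liver cells were perfused and digested with the transcription inhibitor flavopiridol present. The sources used here do not give age, sex or how many animals a library came from.

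Kupffer cells are macrophages that live in the sinusoids of the liver, where they take up aged red cells, dead cells, microbes and modified lipoproteins from the blood. Their identity depends on signals from the cells around them and on transcription factors that include LXR alpha, ID3 and SpiC. When resident Kupffer cells are lost, monocytes can enter the niche and take on part of this identity. Tim4, the product of Timd4, binds phosphatidylserine on dying cells and marks long-term resident Kupffer cells.

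A KC-H-only region at a promoter shows most directly which gene it lies at, so 4 promoter windows are shown. Clec4f, C6 and Vsig4 are the Kupffer cell identity genes whose window held 100 bp or more of a KC-H-only peak, and Klf15 carried the highest-scored KC-H-only peak of all such windows. Each window runs 5′ to 3′ on the gene's strand from 250 bases before to 50 bases after the RefSeq start of build GRCm38.p6. Capitals mark every match to the 17 motifs spelled out further on.
Clec4f: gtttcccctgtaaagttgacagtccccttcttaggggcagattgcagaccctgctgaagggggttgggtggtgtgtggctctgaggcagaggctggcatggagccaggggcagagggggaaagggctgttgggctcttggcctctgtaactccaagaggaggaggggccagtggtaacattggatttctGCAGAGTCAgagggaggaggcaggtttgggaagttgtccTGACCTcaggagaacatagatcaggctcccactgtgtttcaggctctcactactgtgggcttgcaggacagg
C6: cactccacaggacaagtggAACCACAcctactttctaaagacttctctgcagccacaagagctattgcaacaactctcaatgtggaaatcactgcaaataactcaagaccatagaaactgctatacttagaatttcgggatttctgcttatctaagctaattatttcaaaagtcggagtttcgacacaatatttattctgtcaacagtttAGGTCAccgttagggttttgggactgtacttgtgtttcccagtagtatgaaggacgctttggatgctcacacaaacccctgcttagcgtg
Vsig4: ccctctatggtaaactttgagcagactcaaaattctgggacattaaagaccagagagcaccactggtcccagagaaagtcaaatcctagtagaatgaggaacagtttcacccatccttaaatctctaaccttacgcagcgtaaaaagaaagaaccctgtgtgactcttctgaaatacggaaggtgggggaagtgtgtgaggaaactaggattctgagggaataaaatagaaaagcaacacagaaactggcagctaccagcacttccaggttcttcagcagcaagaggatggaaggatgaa
Klf15: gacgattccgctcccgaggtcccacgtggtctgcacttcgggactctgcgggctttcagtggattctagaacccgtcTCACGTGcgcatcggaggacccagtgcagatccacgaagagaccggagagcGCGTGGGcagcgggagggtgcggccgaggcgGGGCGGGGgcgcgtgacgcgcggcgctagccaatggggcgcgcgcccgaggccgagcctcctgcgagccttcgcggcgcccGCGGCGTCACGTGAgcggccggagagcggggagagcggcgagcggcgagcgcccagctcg
The Clec4f window lies at chr6:83656067-83656366 on the minus strand, and the KC-H-only peak at chr6:83655999-83656199 covered 133 of its bases. The C6 window lies at chr15:4726960-4727259 on the plus strand, the Vsig4 window at chrX:96293389-96293688 on the minus strand and the Klf15 window at chr6:90462326-90462625 on the plus strand, and a whole 200 bp peak lay in each. Clec4f encodes a lectin receptor particular to Kupffer cells in the mouse, C6 a component of the complement attack complex, and Vsig4 a complement receptor that captures pathogens. Klf15 encodes a zinc finger transcription factor best known for the control of glucose, amino acid and lipid metabolism.
The 4 peaks were not alike in strength: the score the authors gave them was 75 at Clec4f, 49 at C6, 28 at Vsig4 and 132 at Klf15. The nearest peak centre of any other list was 17.5 kb from the peak at Clec4f, 7.23 kb at C6, 6.95 kb at Vsig4 and 39.8 kb at Klf15. The peaks covered the starts of Clec4f, Vsig4 and Klf15, while the peak at C6 ended before the start, and no other list had a call within several kilobases of any of the 4.

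The values that chose the regions place most of them at the weak end of the KC-H list, and they are given as a description. The normalized tag count is the authors' measure of reads at a peak, and the score, also theirs, ranks the peaks of 1 list. KC-H-only peaks had a median tag count of 10.5 with quartiles of 9.22 and 12.9, whereas the other 53630 KC-H peaks had a median of 20.3 with quartiles of 12.9 and 36.9. Their median score was 30, against 54 for the other KC-H peaks. With the list divided by score into 10 equal bins, 0.063% of the peaks in the best-scored bin were KC-H-only, 6.58% in the fifth and 44.1% in the lowest-scored. Thus 785 KC-H-only regions, or 7.95% of them, fell in the best-scored 50% of KC-H peaks, where they made up 2.48% of the KC-H regions.

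**Figure D1:**
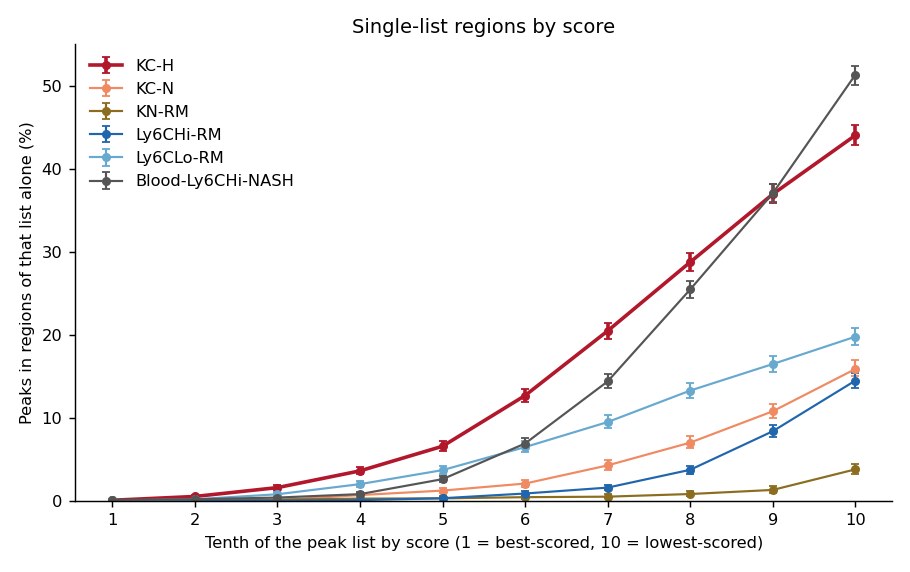
Share of peaks lying in regions of 1 list alone (vertical axis, %), for 10 equal bins of each list ordered by the authors' score (horizontal axis, best-scored bin at the left); bars are 95% Wilson intervals. The KC-H line lies above those of the other liver lists in the lower-scored bins and reaches 44.1% in the last bin, where KC-N reaches 15.9%.

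The same rule applied to the other lists gave smaller shares, 4.25% of KC-N regions, 0.769% of KN-RM, 2.96% of Ly6CHi-RM, 7.24% of Ly6CLo-RM and 14.0% of Blood-Ly6CHi-NASH. Tag counts below 40 were whole multiples of 1 step in every list, and the step was 0.3074 in KC-H, 0.4807 in KC-N, 0.3845 in KN-RM, 0.5209 in Ly6CHi-RM, 0.6122 in Ly6CLo-RM and 0.4851 in Blood-Ly6CHi-NASH. KC-H thus had the smallest step, and its lowest peak held 27 steps, the fewest of the 6 lists. With every list cut to the length of the shortest, 2962 of 34225 KC-H regions, or 8.65%, were KC-H-only. The shares of the other lists at equal length were not counted. A region counted as absent from a list was not called there, which does not show that it was closed, and lower depth of a list and less open chromatin cannot be told apart. The deposited lists combine both libraries of a group, so no value has a replicate error, no test between groups was possible, and the Wilson intervals cover counting error only.

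Few members owed their place to the edge of the rule. Of the KC-H-only regions, 68 lay 0 to 20 bp from a peak of another list and 186 lay 0 to 50 bp from one. Of the other KC-H peaks, 77 were overlapped by 1 to 20 bp at most and 177 by 1 to 50 bp at most. The share of KC-H regions that were KC-H-only was also similar among the autosomes, between 13.9% on chromosome 7 and 16.9% on chromosomes 5 and 8. It was 15.0% on the X chromosome and 5 of 23 on the Y chromosome, and of unplaced sequences the one with the most KC-H regions had 7 of 116 (6.03%).

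KC-H-only regions lay at widely spread distances from chromatin that other lists called. The nearest centre of another list was within 1000 bp for 4171 of them (42.3%), and within 400 bp for 1562 (15.8%). Another 816 (8.27%) had no centre of another list within 50 kb, a larger share than among the regions of KC-N alone (2.43%), KN-RM alone (3.04%), Ly6CHi-RM alone (1.76%), Ly6CLo-RM alone (5.17%) or Blood-Ly6CHi-NASH alone (5.05%). The median distance was 1.51 kb for KC-H-only regions, 1.76 kb for regions of KC-N alone and 4.20 kb for those of Blood-Ly6CHi-NASH alone. Of the 4171 regions with a near neighbour, KC-N held the nearest centre at 1248, Blood-Ly6CHi-NASH at 872, Ly6CLo-RM at 729, KN-RM at 698 and Ly6CHi-RM at 624. KC-N was thus the most frequent nearest neighbour, while its own list was shorter than those of Ly6CHi-RM, Ly6CLo-RM and Blood-Ly6CHi-NASH.

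**Figure D2:**
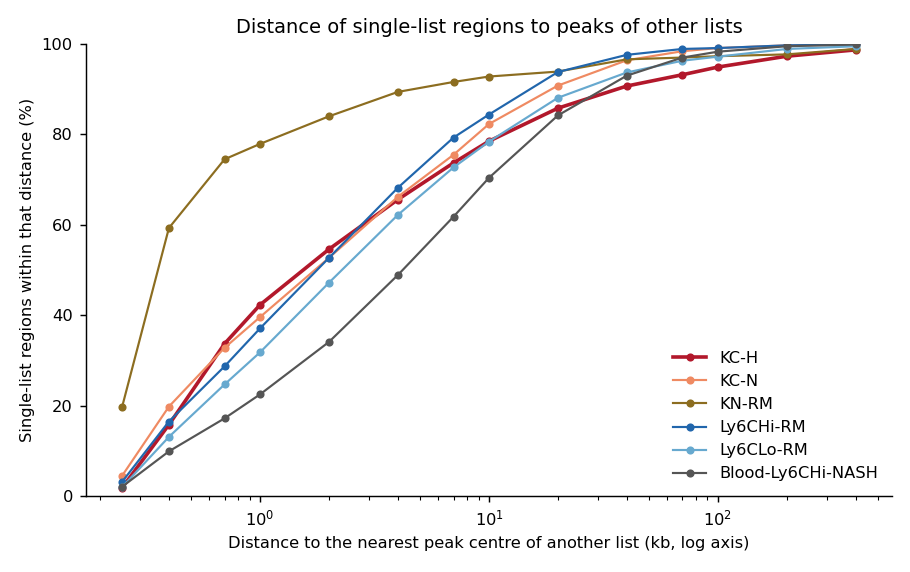
Cumulative share of single-list regions (vertical axis, %) by distance to the nearest peak centre of any other list (horizontal axis, kb, log axis), 1 line per list. At 1 kb the KC-H line stands at 42.3% and the Blood-Ly6CHi-NASH line at 22.5%; KN-RM, with only 263 regions, lies highest at short distances.

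KC-H-only regions lay less often at gene ends than the KC-H regions that other lists shared, but more often than the shared regions of similar score. A gene end within 1 kb was found for 20.1% of KC-H-only regions (95% Wilson interval 19.4 to 20.9%) and for 29.6% of the shared KC-H regions. The share was 17.3% (16.6 to 18.0%) among shared KC-H regions with a score of 27 to 37, the middle 50% of the KC-H-only scores. The share of KC-H-only regions, which were not cut to these scores, was thus higher than that. The single-list regions of the other groups lay on both sides of the KC-H-only share, with 13.5% for KC-N, 29.3% for KN-RM, 10.2% for Ly6CHi-RM, 10.9% for Ly6CLo-RM and 10.4% for Blood-Ly6CHi-NASH. KC-H-only regions lay inside a gene in 63.2% of cases, against 56.9% of shared KC-H regions, and more than 100 kb from any gene in 6.94%, against 3.93%.
Gene ends were rarer away from other lists' peaks. Among the 5700 KC-H-only regions with no other centre within 1000 bp, 8.58% lay within 1 kb of a gene end. The RefSeq transcription starts used here included none on chromosome 18, where 321 KC-H-only regions lay, and none on unplaced sequences. All distances to a start leave those regions out. Of the 5496 regions without a near centre that could be measured, 5.04% lay within 1 kb of a start. Of the 9539 KC-H-only regions that could be measured, 16.7% lay within 1 kb of a start. The median distance to a start was 19.9 kb, against 12.4 kb for shared KC-H regions. For shared KC-H regions with a score of 27 to 37 the median was 17.8 kb, and 14.1% lay within 1 kb of a start. Exons, introns and untranslated regions were not used here.

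KC-H-only regions were also grouped along the chromosomes. Of them, 4357 (44.1%) had another KC-H-only region within 10 kb, compared with 14.0% of regions of KC-N alone, 12.2% of KN-RM alone, 8.91% of Ly6CHi-RM alone, 24.6% of Ly6CLo-RM alone and 25.2% of Blood-Ly6CHi-NASH alone, a list with nearly as many such regions. Runs of 3 or more consecutive merged regions that were all KC-H-only held 1635 of them (16.6%), and runs of that kind held 9.36% of the regions of Blood-Ly6CHi-NASH alone. There were 157 runs of 4 or more. Of these, 69 spanned less than 50 kb, and 48 spanned more than 200 kb.
The longest run lay at Timd4. It held 14 consecutive KC-H-only regions at chr11:46811586-47032608, 12 of them assigned to Timd4 and 2 to Sgcd, the gene of delta-sarcoglycan. The next held 13 regions in 22.8 kb at Slc40a1 (chr1:45902000-45924824), which encodes ferroportin, the cell's iron exporter. Clec4f had a run of 9 regions in 18.9 kb (chr6:83640741-83659602).
Other dense runs, 8 regions each, lay at Rxra in 17.1 kb, at Ucp2 in 4.84 kb, at Ctsd in 11.9 kb and at Sdc3 in 45.1 kb. Rxra encodes the nuclear receptor RXR alpha, the dimer partner of LXR and PPAR receptors. Ucp2 encodes a mitochondrial carrier, Ctsd the lysosomal protease cathepsin D, and Sdc3 a heparan sulphate proteoglycan of the cell surface. Among the runs of over 200 kb were 11 regions around Ldoc1 on the X chromosome and 8 at the Ugt2b genes of chromosome 5, whose products conjugate drugs and steroids in the liver.

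In a RefSeq table of 21900 protein-coding genes, 9186 KC-H-only regions were assigned to the gene that held them or to the nearest within 100 kb. KC-H-only regions made up 15.2% of all KC-H regions assigned in this way. They were spread over 4922 genes, of which 3022 had 1 and 296 had 5 or more. The 20 genes with the most held 335 KC-H-only regions among 762 KC-H regions, and with a median length of 143 kb they were longer than protein-coding genes as a whole (median 17.1 kb). These 20 were chosen by the count itself, so their counts are a description.
Rxra led with 28 KC-H-only regions of 47 KC-H regions, while 14 regions at Rxra were called in KC-N, 10 in KN-RM, 7 in Ly6CHi-RM, 2 in Ly6CLo-RM and 14 in Blood-Ly6CHi-NASH. Rgl1, an exchange factor for Ral GTPases, had 26 of 44, and Mroh2a had 23 of 32, with 4 regions in KC-N. Rasgef1b, an exchange factor for Ras family GTPases, had 19 of 47, Sdc3 had 18 of 37, and the receptor phosphatase gene Ptprm had 17 of 39. The endocytic scaffold gene Itsn1 had 17 of 43, Sash1 had 16 of 50, and Sema6d, a semaphorin, had 16 of 45.
Timd4 had the highest share of the 20. Of its 17 KC-H regions, 15 were KC-H-only, and KC-N and Ly6CLo-RM called 1 region each there, and KN-RM, Ly6CHi-RM and Blood-Ly6CHi-NASH called 0. Slc40a1 had 14 of 19, while KC-N called 5 regions there, KN-RM 2, and Ly6CHi-RM, Ly6CLo-RM and Blood-Ly6CHi-NASH 3 each. Mertk, a receptor kinase for dead cell uptake, had 14 of 29, with 14 regions in KC-N, 11 in KN-RM, 7 in Ly6CHi-RM, 3 in Ly6CLo-RM and 7 in Blood-Ly6CHi-NASH. At all 3 genes KC-H had the most regions of the 6 lists, and at Slc40a1 and Mertk KC-N came next.
Of the rest, Frmd4b had 15 KC-H-only regions of 50, Wdfy3, an adaptor of selective autophagy, 15 of 45, and Itga9, the integrin alpha 9 chain, 15 of 47. Sh3bp5 had 14 of 28, Prex1, an activator of Rac, 14 of 53, Adgrv1, an adhesion receptor, 14 of 34, Ccny, a membrane-bound cyclin, 13 of 24, and Tbc1d2b 12 of 32. Prex1 stood at the other end from Timd4, since each of the other lists called 32 to 40 regions there.

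**Figure D3:**
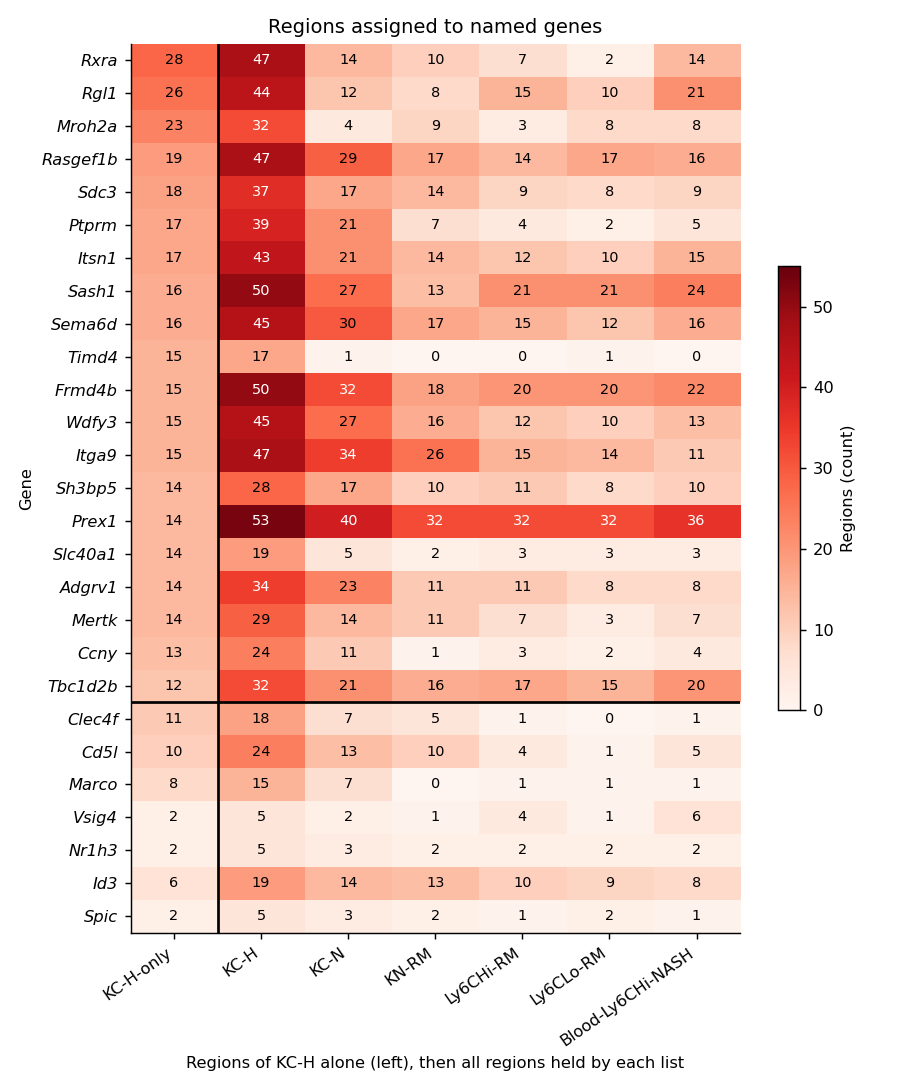
Regions assigned to each named gene, with KC-H-only regions in the left column and all regions held by each list to the right of it (count, colour and number). Rows above the line are the 20 genes with the most KC-H-only regions, rows below it further Kupffer cell marker genes; Timd4 has 15 KC-H-only regions and 0 or 1 region in each list but KC-H.

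Among 23 gene lists, the Kupffer cell identity genes had the largest share of KC-H-only regions. At these 18 genes, 92 of 177 KC-H regions (52.0%, interval 44.7 to 59.2%) were KC-H-only, against 15.2% over all protein-coding genes, and 17 of the 18 genes had at least 1. Without Timd4 the count was 77 of 160 (48.1%). Of the 92, 75 had no centre of another list within 1000 bp. In the best-scored 50% of KC-H peaks, 10 of 68 regions at these genes (14.7%) were KC-H-only, against 2.48% over all KC-H regions. Of the 10, 4 lay at Timd4, 3 at Marco and 1 each at Clec4f, C6 and Cd163, and the other genes of the list had none there. In lists of equal length the count was 29 of 79 (36.7%), against 8.26% over all protein-coding genes, and Marco and Timd4 gave 7 each and Slc40a1 5. The list was chosen with results of these data known, and the shares are descriptions of 1 list per group. Kupffer cell markers are also picked for low use in other cells, so part of a high share is set by that choice. With KC-N left out the share was 64.4%, and with any other list left out it was 52.0 to 53.1%. Over all KC-H regions it was 21.4% without KC-N and 16.0 to 18.3% without any other list.
All 18 genes of this list are given whatever their values. Beside Timd4 and Slc40a1, Clec4f had 11 KC-H-only regions of 18, Cd5l, a secreted regulator of lipid and immune functions, 10 of 24, Marco, a scavenger receptor for bacteria and particles, 8 of 15, and Id3, an inhibitor of helix-loop-helix factors, 6 of 19. Cdh5, the gene of VE-cadherin, had 5 of 10, C6 had 4 of 7, Cd163, the receptor for haemoglobin bound to haptoglobin, 3 of 7, and Il18bp, an IL-18 antagonist, 3 of 5. Vsig4, Nr1h3, which encodes LXR alpha, Spic, the factor for red pulp and iron-recycling macrophages, and Clec1b, a platelet-activating lectin receptor, had 2 of 5 each. Fcna, a ficolin, had 2 of 4, Adgre1, the gene of F4/80, had 2 of 8, Lyve1, a hyaluronan receptor, had 1 of 1, and Folr2, a folate receptor, had 0 of 3.
The marker genes did not share 1 pattern across the other lists. At Marco, KC-N called 7 regions, KN-RM 0, and Ly6CHi-RM, Ly6CLo-RM and Blood-Ly6CHi-NASH 1 each. At Clec4f, KC-N called 7, KN-RM 5, Ly6CHi-RM 1, Ly6CLo-RM 0 and Blood-Ly6CHi-NASH 1. At Cd5l, KC-N called 13, KN-RM 10, Ly6CHi-RM 4, Ly6CLo-RM 1 and Blood-Ly6CHi-NASH 5. At Id3 the lists were closer, with 14 in KC-N, 13 in KN-RM, 10 in Ly6CHi-RM, 9 in Ly6CLo-RM and 8 in Blood-Ly6CHi-NASH. Clec4f and Cd5l thus kept regions in both F4/80-high NASH lists, while Marco kept them in KC-N and Timd4 in neither beyond 1. Vsig4 and Cd163 went another way, with the most regions in Blood-Ly6CHi-NASH. At Vsig4 it called 6, KC-H 5, Ly6CHi-RM 4, KC-N 2, and KN-RM and Ly6CLo-RM 1 each. At Cd163 it called 8, KC-H 7, Ly6CHi-RM and Ly6CLo-RM 4 each, KC-N 3 and KN-RM 2.

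At Timd4 the KC-H-only regions covered the gene and its surroundings. They lay between 12.3 kb before the start and 37.6 kb past it, at scores from 24 to 68, and the 2 highest-scored lay inside the gene, 1.84 kb from the start with a tag count of 27.1 (score 68) and 7.11 kb from it with a tag count of 28.3 (score 66). The region called in KC-N too was the one at the start. Tim4 on the cell surface was used to sort the cells, and KC-N cells are labelled Tim4-positive like KC-H cells, so the KC-N list held 1 region at the gene of a protein its cells were sorted for.
At Slc40a1, 13 of the 14 KC-H-only regions lay in the run described above, with scores of 23 to 46, so none was among the best-scored 50% of KC-H peaks. At Clec4f the peak at the start (score 75, tag count 28.3) was the highest, and the other 10 had scores of 25 to 47. At Marco the highest-scored KC-H-only peak, chr1:120527654-120527854, had a score of 83 and a tag count of 31.0 and lay 22.7 kb from the start, while a peak 190 bp from the start had a score of 52. These 4 genes differ in where the strong KC-H-only peaks lie, at the start in Clec4f, within the gene in Timd4 and outside it in Marco.

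**Figure D4:**
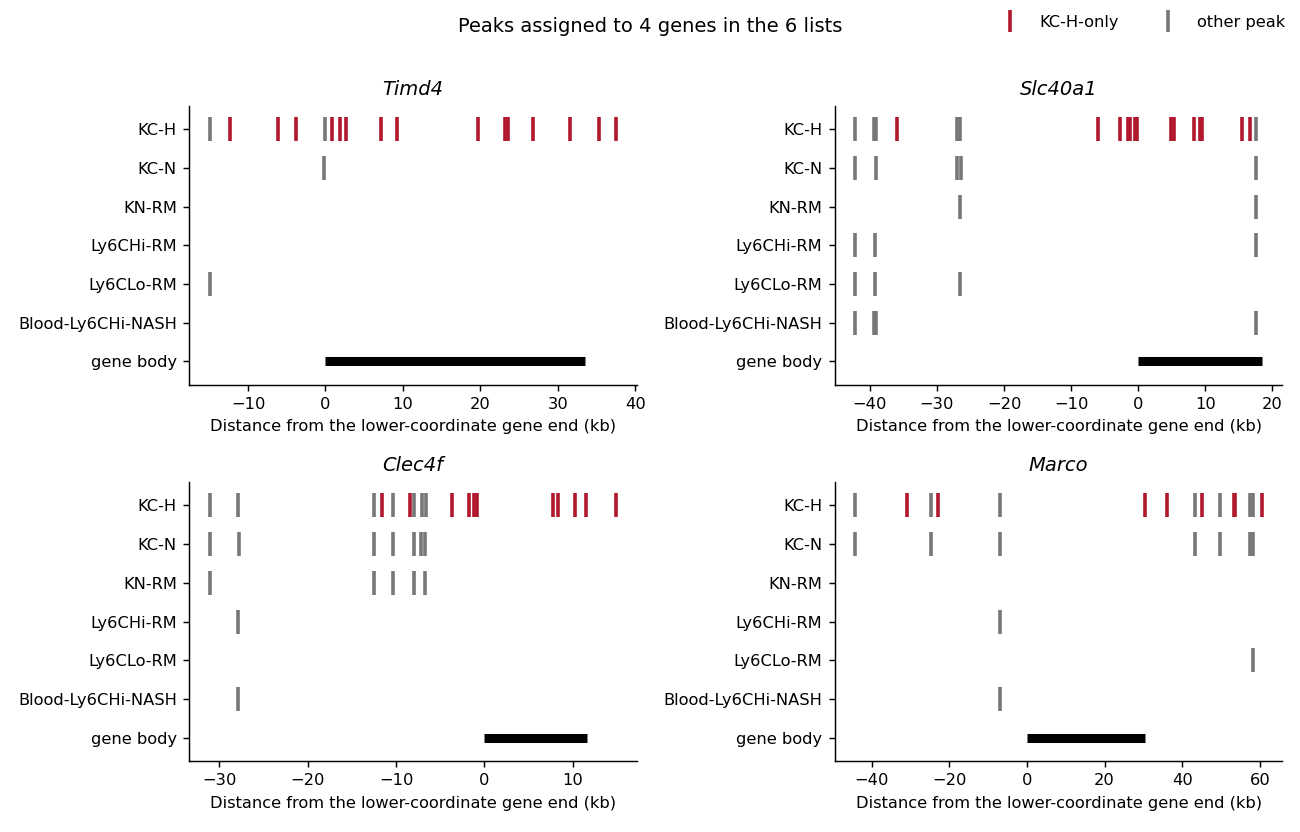
Positions of all peaks assigned to Timd4, Slc40a1, Clec4f and Marco in the 6 lists, as distance from the lower-coordinate end of the gene (kb); red marks are KC-H-only, grey marks are other peaks, and the black bar is the gene. The KC-H row holds 15, 14, 11 and 8 red marks in these genes. KC-N called 1, 5, 7 and 7 regions there, and at Clec4f and Marco some lie between red marks. At Timd4 the rows of the other lists hold 0 or 1 mark.

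Genes for complement and dead cell uptake had 70 of 178 KC-H regions KC-H-only (39.3%), and 12 of 19 genes had at least 1. After Timd4 and Mertk the most were at Lrp1, a large endocytic receptor, with 11 of 36, and at Stab2, a scavenger receptor for hyaluronan, with 7 of 19. Without Timd4 the share was 34.2%. The 3 chains of C1q, which opens the classical complement pathway, had 3 of 6 at C1qa, 3 of 5 at C1qb and 4 of 7 at C1qc, named after their values were seen.
Iron and heme genes had 42 of 128 (32.8%), with 25.7% left without Slc40a1. Hmox1, which encodes the heme-degrading enzyme heme oxygenase 1, had 4 of 12, and Slc11a1, a phagosomal metal transporter, 4 of 10. Scavenger receptor genes had 41 of 141 (29.1%), where Scarb2, a lysosomal membrane receptor, had 6 of 25 and Marco and Stab2 the most. C-type lectin genes had 19 of 70 (27.1%), but 8 of 52 (15.4%) without Clec4f.
LXR and lipid genes had 70 of 243 (28.8%), of which Rxra and Mertk held 28 and 14. Abca1, the cholesterol exporter, had 8 of 42, and Scd1, a fatty acid desaturase, 5 of 16. Without Rxra the share was 21.4%, and in the best-scored 50% of peaks it was 2 of 115 regions. Macrophage transcription factor genes had 117 of 468 (25.0%) and 23 of 24 genes with at least 1, led after Rxra by Cebpb with 12 of 50, Klf2 with 10 of 18 and Irf8 with 9 of 34. In the best-scored 50% they too had 2, of 214 regions. Of all KC-H regions in the better-scored 50%, 2.48% were KC-H-only, so neither list stood above the background there. In lists of equal length, where the share over all protein-coding genes was 8.26%, the LXR and lipid genes had 14 of 126 (11.1%) and the macrophage transcription factor genes 19 of 237 (8.02%), which is the background. Equal-length lists gave 15 of 84 (17.9%) for complement and dead cell uptake, 7 of them at Timd4. They gave 12 of 71 (16.9%) for iron and heme, 5 at Slc40a1. Scavenger receptors had 18 of 77 (23.4%), 7 at Marco, and C-type lectins 6 of 32 (18.8%). In the best-scored 50% of peaks, iron and heme genes had 2 of 61 (3.28%) and C-type lectin genes 1 of 28 (3.57%), near the 2.48% background. Complement and dead cell uptake genes had 7 of 79 (8.86%) there, 4 of them at Timd4, and scavenger receptor genes 8 of 74 (10.8%), 3 of them at Marco.

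Stress and inflammatory gene lists lay near or below the background. Early response genes, with the AP-1 and EGR factors, had 25 of 259 (9.65%, interval 6.62 to 13.9%), with 4 of 15 at Batf3 and 3 of 31 at Fos. NF-kB and inflammation genes had 20 of 153 (13.1%), with 4 of 19 at Nfkbia, and antigen presentation genes 10 of 105 (9.52%). Genes for TGF-beta, BMP and Notch signalling had 34 of 229 (14.8%), the Trem2-type macrophage list 20 of 126 (15.9%) with 10 at Ctsd, the lysosome list 29 of 173 (16.8%) with the same 10, and the interferon list 11 of 60 (18.3%). Housekeeping genes had 12 of 79 (15.2%), which equals the background, but 6 of the 12 lay at Actb. Without Actb the count was 6 of 61 (9.84%). In lists of equal length they had 2 of 47 (4.26%), against 8.26% over all protein-coding genes.

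Markers of other cell types were counted in the same way, as a check of the label. All 18 Kupffer cell identity genes had a KC-H region, and so had 9 of 10 dendritic cell genes and 8 of 11 monocyte genes. Fewer had one among T and NK cell genes (6 of 13), neutrophil genes (5 of 11) and hepatocyte genes (3 of 12). Hepatocyte genes had 0 KC-H-only regions of 5 KC-H regions, which allows up to 43.4%, neutrophil genes 0 of 15, which allows up to 20.4%, and T and NK cell genes 1 of 16. Monocyte genes had 7 of 56 (12.5%), 6 of them at Plac8. Liver endothelial genes had 15 of 63 (23.8%), with 7 at Stab2 and 5 at Cdh5, and 9 of the 14 genes had a KC-H region, while Tek, Tie1, Gata4, Flt4 and Oit3 had none. Stellate cell genes had 5 of 18 (27.8%), 4 of them at Hgf, and 3 of the 13 genes had a KC-H region. Dendritic cell genes had 16 of 76 (21.1%), with 9 at Tcf4, and B cell genes had 5 of 15 (33.3%), with 2 each at Ebf1 and Blk, and 6 of the 8 genes had a KC-H region. The part of other cells in these counts was not tested.

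**Figure D5:**
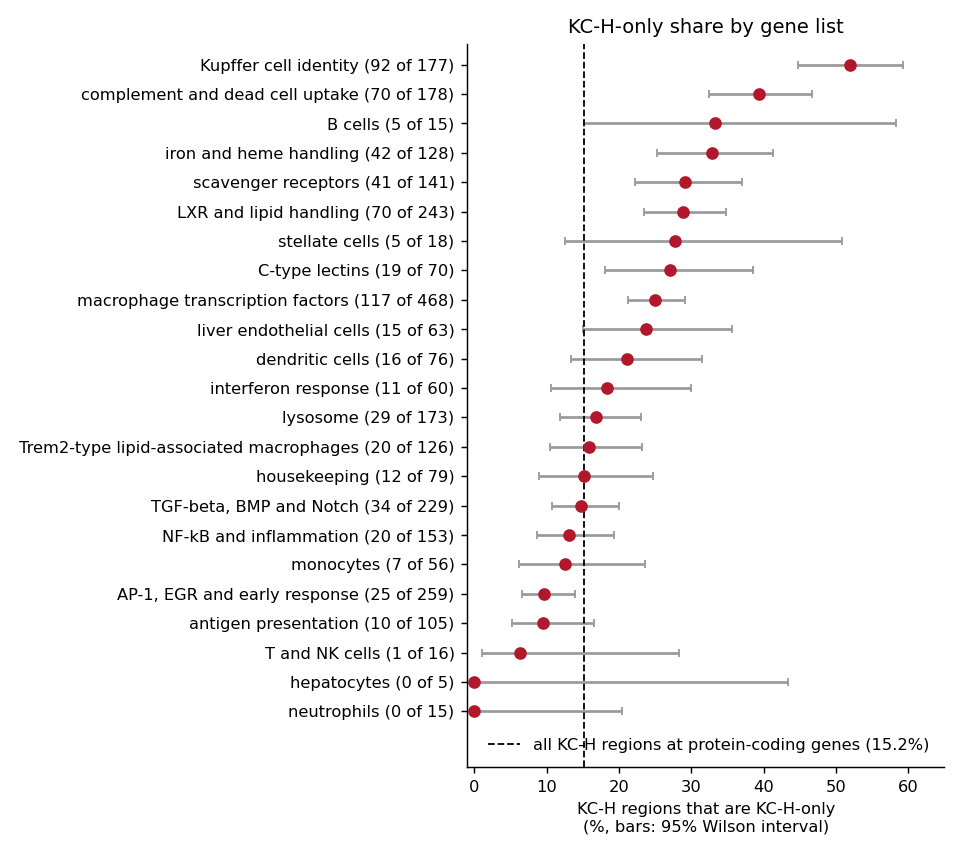
Share of the KC-H regions at each of 23 gene lists that are KC-H-only (horizontal axis, %; points with 95% Wilson intervals, counting error only; counts beside each name); the dashed line is the 15.2% over all protein-coding genes. Kupffer cell identity genes stand at 52.0% and early response genes at 9.65%; lists share some genes.

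Of the 14010 genes with a KC-H region, 35 had 3 or more KC-H regions with every one KC-H-only, and these genes are chosen here by that property. How many genes had 3 or more KC-H regions was not counted, so the 35 have no background share. Over all KC-H regions, 15.6% were KC-H-only. Ldoc1, a small nuclear protein gene, had 10 and Klf15 had 6, with 0 regions in the other lists at both. At Klf15 they lay from the start (score 132, tag count 59.9) to 52.7 kb from it, and a second strong peak lay 1.06 kb from the start (score 62, tag count 22.1). Ldoc1 had its highest-scored peak, with a score of 114, 29.1 kb from the gene.
The strongest KC-H-only peak of all, score 191 and tag count 107.3, lay 407 bp from the start of Pgrmc2, a heme-binding membrane protein gene, and there a KN-RM centre was 271 bp away, so this region stands beside chromatin that other lists called. The second, chr8:103577217-103577417, with score 143 and tag count 62.1, lay 522 kb from any other list's centre and over 100 kb from any gene. Further high-scored KC-H-only peaks lay 16.8 kb from Edil3 (score 134), whose product binds integrins, 42.2 kb from Ccn1 (125), a matrix protein, and 79.2 kb from Amigo2 (119). One of score 127 lay inside H13, a signal peptide peptidase gene, 242 bp from the start of Mcts2, a gene within it, and others lay inside Cdkal1 (116) and Fgf10 (112).

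The promoters under KC-H-only peaks were less often rich in CpG than those of shared peaks, and lay at the level of shared peaks of similar score. No promoter window lay on chromosome 18, so that chromosome is left out of the promoter counts. Of 8753 KC-H peaks with 100 bp or more inside a promoter window, 269 were KC-H-only, in 268 windows, and 165 of the 269 had no other list's centre within 1000 bp. A ratio of observed to expected CpG above 0.6 was found in 48.1% of the 268 windows (interval 42.2 to 54.1%), in 77.8% of windows under shared KC-H peaks, in 50.3% of the 495 under shared peaks with a score of 27 to 37, and in 35.8% of all 32817 windows.
Motifs were searched on both strands as fixed letters, where N is any base. The share of all windows with a match was 3.2% for PU.1 and other ETS factors (GAGGAAGT), 7.81% for AP-1 (TGANTCA), 10.8% for C/EBP (TTGCNNAA), 7.85% for a MAF half-site (TGCTGAG) and 3.76% for the E-box of MITF and TFE factors (TCACGTG). It was 0.0152% for the LXR element DR4 (AGGTCA, any 4 bases, AGGTCA), 0.0457% for a shortened form of it (GGTCA, any 4 bases, GGTCA), 16.3% for the nuclear receptor half-site (AGGTCA), 6.39% for RBPJ (GTGGGAA), 0.213% for SMAD (GTCTAGAC) and 5.27% for RUNX (TGTGGTT). It was 3.43% for IRF (GAAA, any 2 bases, GAAA), 5.04% for EGR (GCGTGGG), 33.2% for KLF and SP (GGGNGGGG), 12.4% for the NRF2 element (TGACNNNGC), 0.649% for the CTCF core (CCAC, any base, AG, any 2 bases, GGC) and 20.7% for NF-kB (GGGA, any 4 bases, CC). The half-site lies within DR4, the MAF and AP-1 letters can overlap the NRF2 element, and EGR can overlap KLF.
The E-box was found in 7.09% of the windows under KC-H-only peaks (interval 4.59 to 10.8%), against 3.03% under shared peaks of score 27 to 37 (1.84 to 4.94%) and 6.77% under all shared peaks. The CTCF core was found in 0 of 268, which allows up to 1.41% by the Wilson interval, against 3.23% (2.0 to 5.19%) at similar score and 1.27% under all shared peaks. AP-1 was found in 5.6% (3.42 to 9.03%), against 10.1% (7.75 to 13.1%) at similar score and 4.92% under all shared peaks. The E-box and AP-1 shares thus differed from the first set of windows and were close to the second. KLF and SP stood at 48.5% against 46.1%, and the nuclear receptor half-site at 15.3% against 12.9%. Against windows of similar score, only the intervals of the CTCF core did not overlap among the 17 motifs, those of the E-box and AP-1 overlapped at their ends, and the 3 were picked after their values were seen, with no test.
In the windows shown at the opening, the E-box letters stand in capitals in Klf15, 1 of them in the palindrome that matches on both strands, beside an EGR, a KLF and an NRF2 match. The Clec4f window holds the NRF2 letters and a half-site, C6 a RUNX match and a half-site, and Vsig4 none of the 17. A match describes the letters of a window and is no evidence that a factor binds there.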

How the data were processed

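ATAC-seq was done on 12 libraries in 6 groups of 2, and the authors deposited a single list of peaks for each group, labelled as filtered by IDR, the irreproducible discovery rate. Bowtie2, HOMER and DESeq2 and the builds mm10 and GRCm38 appear, without roles, in the submitters' processing notes. The sources used here give no reads per library, filters or transposase shift. The deposited tag count is a normalized signal of the peak, the deposited score is a whole number per peak, and a further deposited column was 0 throughout.

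Peaks were merged over all lists. A region was assigned to the RefSeq gene (GRCm38.p6) around its centre (of several, the gene whose end was nearer), otherwise to the nearest within 100 kb. Starts, strands and promoter windows came from the RefSeq promoter table, which held none on chromosome 18. In 1282 of 1282 overlapping windows of opposite strands the sequences were reverse complements. Motifs were searched there alone, since no genome was used here. Shares have 95% Wilson intervals from scipy.

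The members, the 23 gene lists and the motifs were chosen with earlier results of these data known. Genes are named by rule: the 20 with the most KC-H-only regions, up to 4 of each gene list with the most, 9 marker genes whatever their values, and those at the 10 highest-scored regions, with and without another list's centre within 1000 bp. Genes named beyond it are the full Kupffer cell identity list, other cell types' markers without regions, and examples of runs and of genes with every KC-H region KC-H-only.

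Alternatives were other overlap rules, absence by distance, the better-scored 50%, equal-length lists, each other list left out, other gene windows and end distances, and assembled chromosomes alone. The identity gene share and the gene list counts in equal-length lists were added after seeing the data. Counting used pandas 2.3.3 and numpy 2.4.6 under Python 3.11.15, intervals scipy 1.17.1 and plots matplotlib 3.10.9. The merging, the choice of KC-H-only regions and the gene assignment were first tested on simulated peaks, and the other steps were not.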

Additional observations from a re-analysis of the deposited data

How the results depend on the processing

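No paired analysis was possible because each deposited list combines both libraries of its group, and for the same reason no replicate could be left out. The number of KC-H-only regions, 9871, became 5700 where absence meant no centre of another list within 1000 bp, 785 in the better-scored 50% of KC-H, 4556 with the better-scored 50% of every list and 2962 in equal-length lists. It stayed within 1.5 times under 8 other settings. Their share of KC-H regions, 15.6%, became 16.3% with a 50% overlap, 8.98% by distance, 2.48% in the better-scored 50% of KC-H, 14.4% with 50% of every list and 8.65% in equal-length lists. It was 21.4% without the KC-N list, 16.0% without KN-RM, 16.2% without Ly6CHi-RM, 16.4% without Ly6CLo-RM and 18.3% without Blood-Ly6CHi-NASH.

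The 92 regions at Kupffer cell identity genes became 10 in the better-scored 50% of KC-H, 33 with 50% of every list and 29 in equal-length lists, and stayed within 1.5 times under 12 settings. Their share, 52.0%, became 42.1% by distance, 14.7% in the better-scored 50%, 36.7% in equal-length lists and 64.4% without KC-N. The share within 1 kb of a gene end, 20.1%, became 21.0% with a 50% overlap, 8.58% by distance, 15.3% in the better-scored 50%, 17.7% without KC-N and 21.2% without Blood-Ly6CHi-NASH, and it was 10.6% within 500 bp and 31.3% within 2500 bp. Fewer peaks entered each cut list. For the other moved values the cause was not tested. Ranking by tag count put 763 in the better 50%. Depth per library is unknown, and weak regions are the least certain members.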
